A study of Mus musculus with 33 samples.

Results

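Serpins are a family of proteins, most of which trap and inactivate serine proteases. The members were taken as every gene in the deposited expression table whose symbol is Serpin followed by a clade letter from a to i, a number and at most 1 further letter. This gave 63 of the 52631 genes. Of these 63, 20 had a mean of at least 1 FPKM in at least 1 of the 11 groups and are counted here, and 14 of the 20 reached a mean of 10 FPKM. FPKM counts sequenced fragments per length of transcript and per size of library, so levels can be set side by side between genes. The other 43 stayed under the limit in each group, and 11 of the 63 were listed at 0 in all 33 libraries.

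RNA was sequenced from mouse cells of strain 129S2/SvPas, with 3 libraries in each group. Undifferentiated embryonic stem cells (mES, day 0) were grown with LIF, a cytokine that holds them in that state, on inactivated fibroblast feeders in 15% serum. They were differentiated on gelatin with 10 µM all-trans retinoic acid (RA), or with 10 µM of it plus 5 µM CHIR (RA/CHIR), in common use a blocker of the kinase GSK3 that switches on Wnt signalling. Both arms had the inducers for 10 days in 15% serum and then 6 days in 10% serum without them, and were collected at days 4, 7, 10 and 16. The labels call the RA cells smooth muscle-like and the RA/CHIR cells like extraembryonic endoderm (XEN). Smooth muscle cells (SMC) and XEN cells, kept in 15% serum and untreated, were the references. Day 16 differs from day 10 in time, serum and inducers together, which cannot be told apart. The labels do not say whether the 3 libraries of a group came from separate cultures, and p-values then measure only the spread between these libraries, which may be technical. In RNA from whole cultures, fewer cells of a type and less RNA per cell cannot be told apart.

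A serpin presents a flexible loop as bait, and a protease that cuts the loop is dragged across the serpin and locked in a distorted, inactive complex. Clades a, c, d, e, f, g and i are largely secreted and control clotting, clot breakdown, complement and the turnover of matrix, whereas most clade b members act inside cells against granule proteases and lysosomal cathepsins. A few have lost inhibition, among them Serpinh1, a chaperone for collagen in the endoplasmic reticulum. In the early embryo, the extraembryonic endoderm lays down a thick basement membrane and its visceral part secretes many plasma proteins that the liver makes later, serpins included.

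Serpin RNA differed in amount and in kind between the cells. The 63 members summed to 229.7 ± 20.3 FPKM in mES, 2135 ± 66.3 FPKM in RA-16d, 2579.8 ± 16.4 FPKM in RA/CHIR-16d, 3191 ± 163 FPKM in XEN and 8406 ± 121 FPKM in SMC (SD, n = 3). Serpinh1 was the most abundant serpin in each group. Its share ran from 82.6% to 83.4% in the libraries of RA-4d and from 37.5% to 38.2% in those of SMC, where Serpinf1 was also abundant, with a mean of 2049 FPKM. The number of members with a mean of 1 FPKM or more was 9 in mES, 11 in XEN, 16 in RA-16d, 17 in SMC and 18 in RA/CHIR-16d.

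Many serpin genes lie side by side in the genome (build GRCm38, GENCODE M21 positions). The Serpina array on chr12:103614786-104414329 holds 24 of the members, of which 4 are described. The Serpinb array on chr13:32842092-34002794 holds 15, of which 6 are described, and each of those 6 reached a mean of 10 FPKM in some group. The Serpinb array on chr1:106861173-107610484 holds 12, of which 3 are described, and none of these reached 10 FPKM. In each of the 3 arrays, most members stayed under 1 FPKM in each group.

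**Figure D1:**
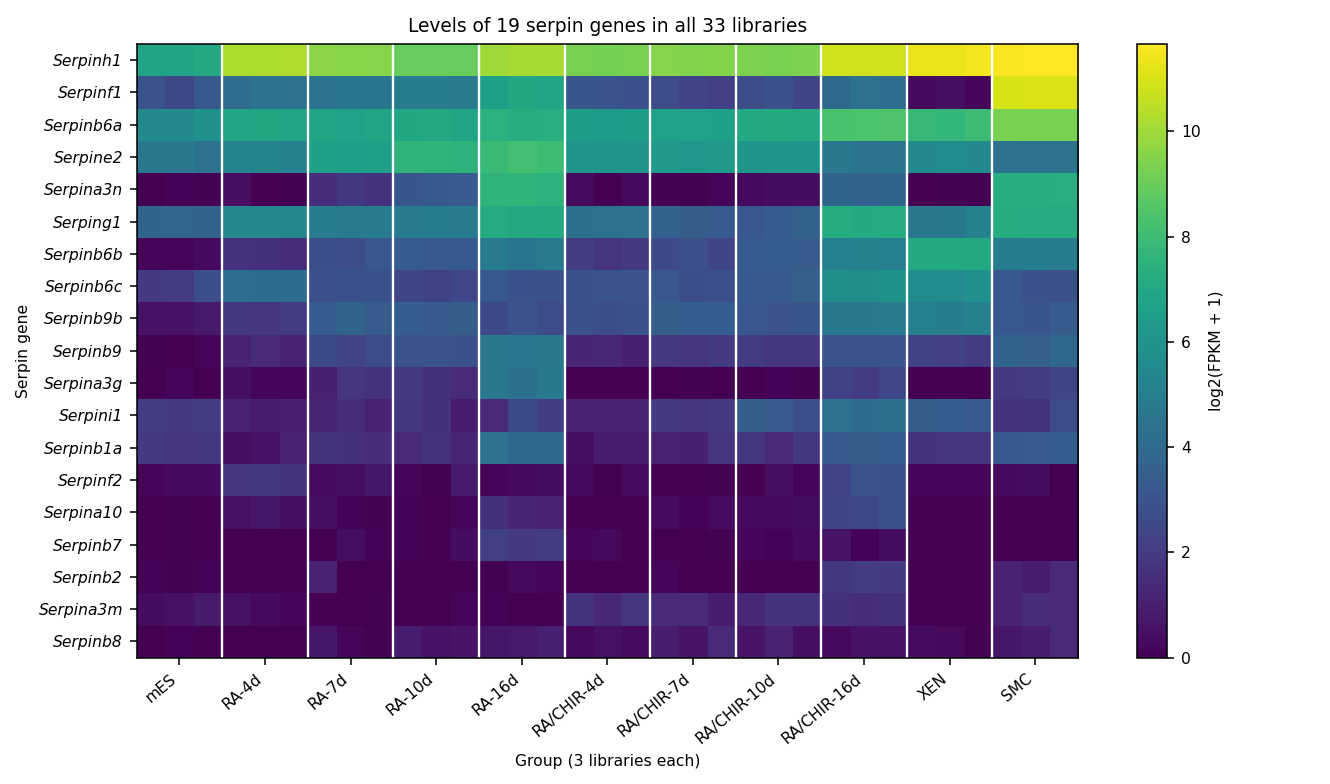
Level of 19 of the 20 serpins (1 gene per line) in the 33 libraries (3 per group, groups parted by white lines), as log2(FPKM + 1) from 0 in dark purple to the highest levels in yellow. Serpinh1 is green to yellow in each library, Serpinf1 turns yellow in SMC alone, and most clade b genes are dark in mES.

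Single libraries held 11573 to 13662 genes at 1 FPKM or more. Their FPKM over all genes summed to between 597010 and 1086371. The values were not rescaled, so FPKM sums in different groups are not shares of an equal total. The deposited table gives no read counts, so the depth behind each value is unknown. The labels were set beside the cells' defining markers. Of 9 smooth muscle markers, 8 reached 1 FPKM in RA-16d and all 9 in SMC, but 7 did so in RA/CHIR-16d and XEN as well and 6 in mES. Of 11 endoderm markers, 11 did so in RA/CHIR-16d, RA-16d, RA-4d and mES alike, 10 in XEN and 6 in SMC. Apart from the lower endoderm count in SMC, these counts do not part the cells. The smooth muscle markers summed to 8979 to 10332 FPKM in RA-16d, 468 to 483 FPKM in RA/CHIR-16d, 208 to 379.6 FPKM in XEN and 18666 to 19334 FPKM in SMC. Stem cell markers, a list of 8, summed to 7253 to 8460 FPKM in mES and 1032 to 1080 FPKM in RA/CHIR-16d. Their sums were 61.4 to 95.5 FPKM in RA-16d, 53.9 to 61.9 FPKM in SMC and 23.5 to 25.8 FPKM in XEN. All 8 reached 1 FPKM in mES, 7 in RA/CHIR-16d, 5 in RA-16d, 3 in SMC and 2 in XEN. Fibroblast markers, a list of 10, were also present: all 10 reached 1 FPKM in SMC and RA-16d and none did in XEN. In mES, where feeders were in the culture, 8 did. On gelatin, 8 also did in RA-4d, RA/CHIR-4d and RA/CHIR-10d, 7 in RA/CHIR-7d, and 9 in RA-7d, RA-10d and RA/CHIR-16d. The 5 leukocyte markers summed to 181 to 195 FPKM in RA/CHIR-16d against 26.96 to 42.7 FPKM in RA-16d, mostly from Cd68, a lysosomal membrane protein, while Ptprc and Adgre1 were at or near 0 in both.

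The design asks first what CHIR adds to retinoic acid at each day. The serpins higher with CHIR at day 16 were led by Serpinb6c, Serpinf2 and Serpini1, and those lower were led by Serpina3n, Serpine2 and Serpinf1. A gene was called when its adjusted p was under 0.05 and its difference at least 1 on the log2(FPKM + 1) scale, which understates the change of weak genes. All 20 passed the filter for testing, and each passed through the groups where it is high, so their counts are a description. At day 4, 2 of the 20 were higher with CHIR, where 3.34% of all genes tested were, and 4 were lower, where 4.28% were. At day 7, 1 was higher beside 4.06% of all genes and 4 were lower beside 6.61%. At day 10, 3 were higher beside 6.35% of all genes and 6 were lower beside 9.07%. At day 16, 8 were higher beside 8.41% of all genes and 6 were lower beside 12.9%. The median log2 difference of the 20 was 0.01 at day 4, -0.22 at day 7, 0.04 at day 10 and 0.21 at day 16, and that of all 16508 genes tested lay between -0.01 and 0.01.

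**Figure D2:**
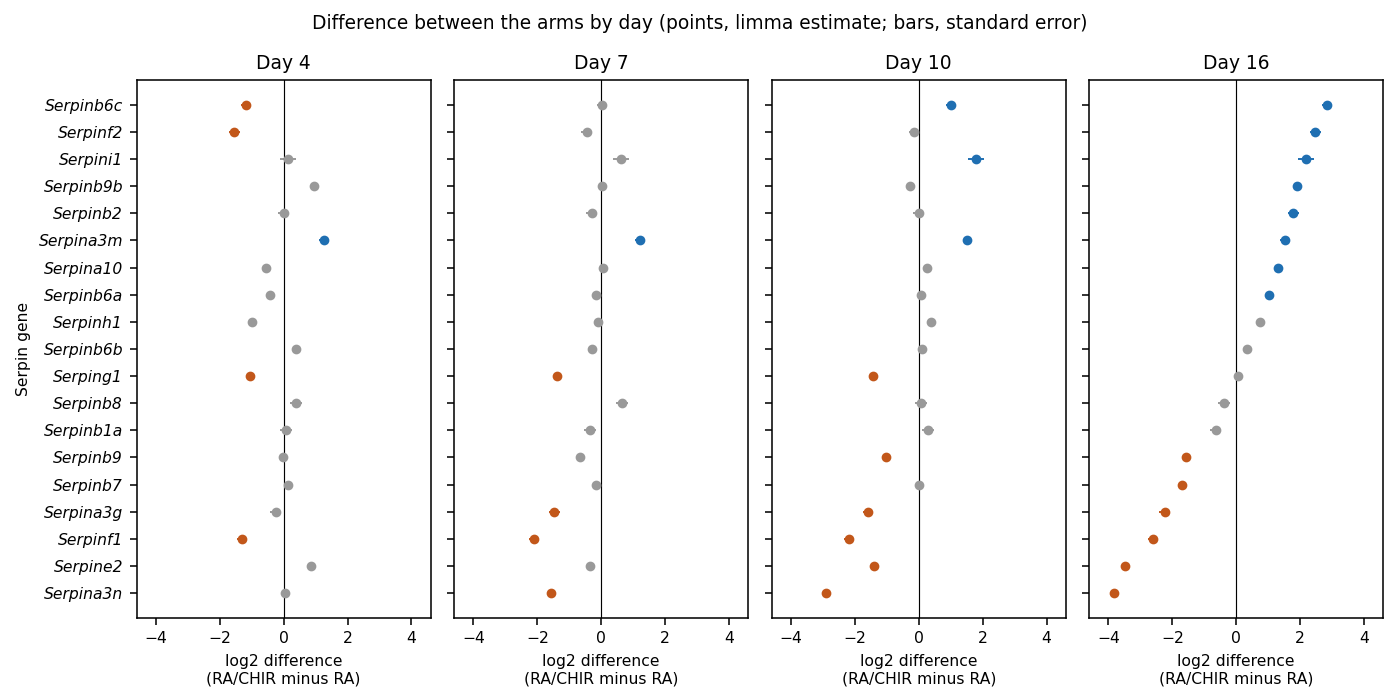
Log2 difference between RA/CHIR and RA (bars, standard error of the model) of 19 of the 20 serpins at days 4, 7, 10 and 16, sorted by the day-16 value. Blue points were called higher with CHIR, orange points lower and grey points were not called, and the points spread furthest from 0 at day 16, from -3.84 for Serpina3n to 2.83 for Serpinb6c.

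Serpinh1, also called HSP47, binds newly made procollagen and is retained in the endoplasmic reticulum (chr7:99345376-99353239). It held 111, 109 and 131 FPKM in mES. After 4 days it held 1213, 1211 and 1218 FPKM in RA-4d and 611, 603 and 608 FPKM in RA/CHIR-4d. The libraries did not overlap between any of the 11 groups for this gene, and mES was lowest, with SMC at 3179 ± 55.4 FPKM and XEN at 2620.0 ± 138 FPKM on top. Serpinh1 was higher than in mES in RA-4d (log2 difference 3.37 ± 0.05, adjusted p = 2.02e-26) and in RA/CHIR-4d (2.37 ± 0.05, adjusted p = 6.98e-23). With CHIR the day-4 level was lower, but missed the size limit for a call (log2 difference -0.998 ± 0.05, adjusted p = 1.22e-14). It passes under both other scalings (-1.01 with TMM-kind factors, -1.13 with quantile normalization) and without RA/CHIR-4d replicate 1 (-1.002). The RA arm went from a mean of 1214 FPKM at day 4 to 769 at day 7 and 496 at day 10, while the RA/CHIR arm stayed between 607 and 719.

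After the inducers were removed, Serpinh1 rose in both arms. Its libraries held 1010.0, 1080.5 and 1111 FPKM in RA-16d against 495, 496 and 499 FPKM in RA-10d (log2 change 1.102 ± 0.05, adjusted p = 1.19e-15). They held 1819, 1782 and 1796 FPKM in RA/CHIR-16d against 648, 631 and 679 FPKM in RA/CHIR-10d (log2 change 1.46 ± 0.05, adjusted p = 1.79e-18). Quantile normalization takes the RA change to 0.98, under the limit. RA-16d stayed below SMC (log2 difference -1.57 ± 0.05, adjusted p = 1.01e-19), a call that quantile normalization also ends, at -0.82. RA/CHIR-16d did not pass the size limit against XEN (-0.54 ± 0.05, adjusted p = 6.41e-10).

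The enzymes and chaperones that work with Serpinh1 on collagen had a median below that of all genes with CHIR at day 4 and above it at day 16, when members were called both ways. Of 20 tested, 5 were lower in limma with CHIR at day 4, beside 4.28% of all genes, and none higher, beside 3.34%. The median log2 difference was -0.58 against 0.01 over all genes, and at an unadjusted p under 0.05 14 were lower and 1 higher. At day 16 6 were higher, beside 8.41%, and 2 lower, beside 12.9%, with a median of 0.48 against -0.01 (13 higher and 3 lower at an unadjusted p under 0.05). At day 4 the lowest were P4ha3, a prolyl hydroxylase subunit (-2.45 ± 0.15, adjusted p = 2.95e-13), Fkbp10, a peptidyl-prolyl isomerase for collagen (-1.66 ± 0.09, adjusted p = 1.19e-14), and Plod2, a lysyl hydroxylase (-1.65 ± 0.05, adjusted p = 1.02e-19). At day 16 P4ha2, another prolyl hydroxylase subunit, had 646 ± 12.1 FPKM in RA/CHIR-16d against 153 ± 6.66 FPKM in RA-16d (2.07 ± 0.12, adjusted p = 5.21e-14). P3h2, which hydroxylates basement membrane collagen, was higher too (2.52 ± 0.12, adjusted p = 9.67e-16), whereas its relative P3h3 was lower (-3.06 ± 0.14, adjusted p = 1.23e-16). Fkbp10 had 1.76 ± 0.262 FPKM in XEN, the line with 2620.0 FPKM of Serpinh1.

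Among the serpins that hold back plasminogen activation, Serpine2 and Serpini1 had different maxima. Serpine2, or protease nexin-1, which blocks thrombin and urokinase at the cell surface (chr1:79794197-79861180), was highest in RA-16d. Serpini1, or neuroserpin, which blocks the tissue-type activator (chr3:75557547-75643495), was highest in RA/CHIR-16d.

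The Serpine2 levels of the 2 arms moved apart after day 7. In the RA arm the libraries stood at 36.04, 36.1 and 33.4 FPKM in RA-4d, at 101, 95.6 and 98.3 FPKM in RA-7d, at 191, 192 and 182 FPKM in RA-10d and at 234, 289.8 and 253 FPKM in RA-16d. In the RA/CHIR arm they stood at 66.1, 64.3 and 64.8 FPKM in RA/CHIR-4d, at 79.2, 73.97 and 77.7 FPKM in RA/CHIR-7d, at 70.9, 70.1 and 71.3 FPKM in RA/CHIR-10d and at 23.6, 21.7 and 21.2 FPKM in RA/CHIR-16d. Each RA step was above the one before it with no overlap, whereas RA/CHIR stayed between 64.3 and 79.2 FPKM from day 4 to day 10, with day 7 highest, and then fell to the range of mES (24.7, 24.7 and 19.2 FPKM). Against mES the gene was higher in RA/CHIR-4d (1.48 ± 0.07, adjusted p = 8.93e-16) and not called in RA-4d (0.61 ± 0.07, adjusted p = 2.65e-08). With CHIR the gene was not called at day 4 (0.87 ± 0.07, adjusted p = 1.33e-10) or day 7 (-0.35 ± 0.07, adjusted p = 0.000201), and was lower at day 10 (-1.400 ± 0.07, adjusted p = 3.37e-15) and day 16 (-3.48 ± 0.07, adjusted p = 1.24e-23). The fall after the inducers (-1.63 ± 0.07, adjusted p = 1.71e-16) made Serpine2 the 1 serpin lower in RA/CHIR-16d than in RA/CHIR-10d. The level in RA-16d was above that in SMC, with 19.2, 19.5 and 19.4 FPKM (3.67 ± 0.07, adjusted p = 1.54e-24). RA/CHIR-16d was below XEN (46.9, 48.1 and 45.6 FPKM; -1.05 ± 0.07, adjusted p = 8.05e-13), though under quantile normalization at -0.97 it misses the size limit.

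Serpini1 was higher with CHIR at day 10, with 10.5, 9.16 and 6.16 FPKM in RA/CHIR-10d against 2.73, 1.97 and 0.825 FPKM in RA-10d (1.79 ± 0.26, adjusted p = 1.35e-06), and at day 16, with 19.7, 15.7 and 18.8 FPKM in RA/CHIR-16d against 1.67, 5.12 and 3.46 FPKM in RA-16d (2.19 ± 0.26, adjusted p = 3.74e-08). Libraries of the 2 arms did not overlap at either day. XEN, with 9.68 ± 0.537 FPKM, was above SMC, with 3.21 ± 1.77 FPKM (1.42 ± 0.26, adjusted p = 2.32e-05). The change from RA/CHIR-10d to RA/CHIR-16d was at the limit (1.01 ± 0.26, adjusted p = 0.00155). It falls to 0.96 with quantile normalization, 0.95 without RA/CHIR-16d replicate 1, 0.98 without RA/CHIR-16d replicate 3 and 0.82 without RA/CHIR-10d replicate 3.

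A further pair of inhibitors of this system appeared at low level in RA/CHIR-16d. Serpinf2, or alpha-2-antiplasmin, the plasma inhibitor of plasmin made by the liver (chr11:75431732-75439591), held 4.11, 6.95 and 6.498 FPKM in RA/CHIR-16d against 0.141, 0.211 and 0.289 FPKM in RA-16d (2.47 ± 0.17, adjusted p = 8.14e-13). It had another, earlier peak in RA-4d, with 2.402, 2.67 and 2.26 FPKM against 0.244, 0.047 and 0.266 FPKM in RA/CHIR-4d (-1.54 ± 0.17, adjusted p = 2.33e-08), and its means in the other groups were at most 0.405 FPKM. Serpinb2, or PAI-2, an inhibitor of urokinase (chr1:107511423-107535478), held 2.71, 3.24 and 2.98 FPKM in RA/CHIR-16d and 1.17, 0.882 and 1.61 FPKM in SMC, and was listed at 0 in each library of RA-10d, RA/CHIR-10d and XEN. It overlaps Serpinb10 on the same strand, and 10.4% of the 50-base words in its transcripts also occur in that gene, so the 2 may share reads. The summed visceral endoderm and liver markers were 631 to 658 FPKM in RA/CHIR-16d, with 7 of 7 at 1 FPKM or more, against 18.9 to 21.98 FPKM in RA-16d and 35.8 to 39.5 FPKM in RA-4d. They were above the RA-4d sums at 44.2 to 56.3 FPKM in RA-7d, where the Serpinf2 mean was 0.405 FPKM, and their part in the Serpinf2 levels was not tested.

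The proteases and receptors that these serpins meet moved in their own ways. Of 11 tested plasminogen activation genes, 5 were lower in limma with CHIR at day 4, beside 4.28% of all genes, and none higher, beside 3.34%. The median log2 difference was -0.27 against 0.01 over all genes, and at an unadjusted p under 0.05 5 were lower and 0 higher. At day 16 2 were higher, beside 8.41%, and 3 lower, beside 12.9%, with a median of 0.43 against -0.01. Plat, the tissue-type activator, had 133 ± 4.14 FPKM in RA-4d and 15.3 ± 1.06 FPKM in RA/CHIR-4d (-3.04 ± 0.09, adjusted p = 2.9e-19), but 76.9 ± 5.07 FPKM in RA-16d and 70.1 ± 5.57 FPKM in RA/CHIR-16d. Plaur, the urokinase receptor, was lower with CHIR at day 4 (-2.25 ± 0.10, adjusted p = 1.04e-15) and higher at day 16 (2.31 ± 0.10, adjusted p = 1.3e-16), when urokinase itself, Plau, was lower (-2.87 ± 0.20, adjusted p = 1.04e-12). Lrp1, the endocytic receptor that clears serpin and protease complexes, was lower at day 16 (-2.93 ± 0.15, adjusted p = 4.3e-15), while its relative Lrp2 was higher (2.25 ± 0.14, adjusted p = 1.19e-13).

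Serping1, the C1 inhibitor, blocks the C1r and C1s proteases that start complement as well as plasma kallikrein (chr2:84765387-84775444). It was lower with CHIR at each day of induction and was not called at day 16. At day 4 the libraries held 18.5, 19.6 and 20.3 FPKM in RA/CHIR-4d against 40.8, 41.95 and 40.7 FPKM in RA-4d (-1.04 ± 0.10, adjusted p = 2.51e-09), and at day 10 7.96, 9.61 and 11.5 FPKM in RA/CHIR-10d against 27.2, 28.5 and 27.8 FPKM in RA-10d (-1.44 ± 0.10, adjusted p = 1.94e-12). At day 16 they held 148, 141 and 143 FPKM in RA/CHIR-16d against 145, 132 and 135 FPKM in RA-16d, and these overlapped (0.07 ± 0.10, adjusted p = 0.587). The rise after the inducers was 3.77 ± 0.10, adjusted p = 5.05e-21 in the RA/CHIR arm and 2.26 ± 0.10, adjusted p = 3.86e-16 in the RA arm, and the interaction, that is the first change minus the second, was called (1.51 ± 0.14, adjusted p = 1.9e-09). SMC had 146 ± 2.35 FPKM, whereas XEN had 27.3 ± 5.298 FPKM, and RA/CHIR-16d was above XEN (2.37 ± 0.10, adjusted p = 3.23e-17). The proteases it blocks differed at day 16. C1s1 had 3.58 ± 0.107 FPKM in RA/CHIR-16d and 90.99 ± 2.06 FPKM in RA-16d (-4.33 ± 0.14, adjusted p = 1.49e-19), and C1ra was lower with CHIR too (-3.404 ± 0.11, adjusted p = 8.36e-20).

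Serpinf1, or PEDF, is a secreted serpin without protease inhibition that restrains vessel growth and is abundant in mesenchymal cells (chr11:75409769-75422701). It was lower with CHIR at each of the 4 days. In RA the libraries held 17.1, 20.4 and 19.2 FPKM in RA-4d, 29.4, 28.6 and 26.5 FPKM in RA-10d and 99.3, 121 and 117 FPKM in RA-16d. With CHIR they held 7.71, 7.28 and 6.22 FPKM in RA/CHIR-4d, 5.37, 6.68 and 4.37 FPKM in RA/CHIR-10d and 15.6, 20.2 and 16.9 FPKM in RA/CHIR-16d. No library of one arm reached the range of the other on the same day, and the log2 difference was -1.304 ± 0.15, adjusted p = 4.36e-08 at day 4, -2.098 at day 7, -2.19 at day 10 and -2.62 ± 0.15, adjusted p = 1.67e-14 at day 16. Both arms rose after day 10 (1.96 ± 0.15, adjusted p = 1.92e-11 in RA; 1.53 ± 0.15, adjusted p = 1.28e-09 in RA/CHIR), and the interaction was not called (-0.43 ± 0.21, adjusted p = 0.0984). SMC held 1956, 2112 and 2080.0 FPKM and XEN 0.247, 0.329 and 0.146 FPKM, the widest gap of any serpin between the 2 lines (-10.69 ± 0.15, adjusted p = 3.04e-28). Fibroblast markers summed to 466 to 502 FPKM in RA/CHIR-16d, 3009 to 3727 FPKM in RA-16d, 16310.4 to 16679 FPKM in SMC and 1.603 to 1.95 FPKM in XEN, the same order as Serpinf1 at day 16 and in the lines. At day 4 they overlapped, with 35.5 to 38.1 FPKM in RA-4d and 33.9 to 45.5 FPKM in RA/CHIR-4d, although Serpinf1 did not, and their part in the Serpinf1 levels was not tested.

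The clade a genes of chromosome 12 included the serpin that differed most between the arms at day 16. Serpina3n, a secreted inhibitor of cathepsin G, granzyme B and leukocyte elastase that rises in acute inflammation (chr12:104406729-104414329), was at or near 0 in mES and XEN and high in RA-16d and SMC. Serpina3g, a relative that can also act inside the cell on cysteine cathepsins (chr12:104236245-104241939), lies in the same array. The start regions of both are given because the pair moved in the same direction in the RA arm and with CHIR. They are RefSeq promoters (GRCm38.p6), chr12:104406458-104406757 and chr12:104235897-104236196, both on the + strand, 5′ to 3′, with the longest exact run shared by the pair in capitals.
Serpina3n: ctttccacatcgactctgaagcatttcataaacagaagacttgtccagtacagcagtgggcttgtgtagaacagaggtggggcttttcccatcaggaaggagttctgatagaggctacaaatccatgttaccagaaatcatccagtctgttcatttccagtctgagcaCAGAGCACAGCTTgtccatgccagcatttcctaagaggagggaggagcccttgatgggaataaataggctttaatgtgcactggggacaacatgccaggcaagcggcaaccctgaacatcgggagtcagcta
Serpina3g: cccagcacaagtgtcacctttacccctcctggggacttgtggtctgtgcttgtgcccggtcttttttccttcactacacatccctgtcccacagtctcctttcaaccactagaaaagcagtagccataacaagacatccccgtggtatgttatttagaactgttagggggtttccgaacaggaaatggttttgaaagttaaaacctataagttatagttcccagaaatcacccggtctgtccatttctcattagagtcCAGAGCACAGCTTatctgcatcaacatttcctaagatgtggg
The shared run has 13 bases and starts at position -82 from the transcription start in Serpina3n but at position 9 in Serpina3g, counting the start base as 1. The run is held by 7 of the 32851 promoter entries, under the symbols Olfr374, Serpina3c, Serpina3f, Serpina3g, Serpina3i and Serpina3n. The best end-to-end alignment of the 2 windows had 73.2% identical bases over 205 aligned bases, with gaps left out of the count. Of the 2, Serpina3g alone held a STAT-type motif, TTCNNNGAA read on both strands, which 8.30% of all promoters hold.

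In the RA arm Serpina3n held 0.379, 0 and 0.0476 FPKM in RA-4d, 1.87, 2.74 and 2.203 FPKM in RA-7d, 7.596, 8.97 and 9.06 FPKM in RA-10d and 192, 195 and 185 FPKM in RA-16d, each day above the one before. With CHIR it held 0.205, 0.324 and 0.314 FPKM in RA/CHIR-10d and 12.4, 12.3 and 12.5 FPKM in RA/CHIR-16d, far under RA on both days. The log2 difference was -1.58 ± 0.11, adjusted p = 2.16e-12 at day 7, -2.89 ± 0.11, adjusted p = 4.79e-18 at day 10 and -3.84 ± 0.11, adjusted p = 7.27e-21 at day 16. The rise after the inducers was called in both arms (4.33 ± 0.11, adjusted p = 1.82e-21 in RA; 3.39 ± 0.11, adjusted p = 1.99e-19 in RA/CHIR). SMC, at 155, 151 and 159 FPKM, was not called against RA-16d (RA-16d minus SMC 0.297 ± 0.11, adjusted p = 0.0169), and XEN held 0, 0.0456 and 0.0564 FPKM. The smooth muscle and fibroblast markers given above were higher in RA-16d as well. Smooth muscle markers were no lower at day 7, with 1471 to 1499.9 FPKM in RA-7d, than at day 10, with 1257 to 1275 FPKM in RA-10d, although Serpina3n was. Fibroblast markers rose at each day of the RA arm, as Serpina3n did. They summed to 35.5 to 38.1 FPKM in RA-4d, 133 to 139.5 FPKM in RA-7d and 231 to 244 FPKM in RA-10d. The part of either list in the Serpina3n levels was not tested.

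Serpina3g took lower values in the same order of arms, with 23.4, 18.7 and 24.96 FPKM in RA-16d and 3.86, 3.25 and 4.67 FPKM in RA/CHIR-16d (-2.24 ± 0.17, adjusted p = 5.38e-12), and was listed at 0 in each library of RA/CHIR-4d and XEN. In SMC it held 2.86, 3.17 and 4.43 FPKM, below RA-16d (RA-16d minus SMC 2.39 ± 0.17, adjusted p = 1.2e-12). Of its 50-base words, 15.5% recur in other genes, chiefly Serpina3h, and none of its 150-base words does, so its level is less certain than that of Serpina3n, where the share is 6.90%. Another gene of the array, Serpina3m, was the reverse of these 2. It had between 1.37 and 2.05 FPKM on average in the RA/CHIR groups and at most 0.277 FPKM in the RA groups, was higher with CHIR at each of the 4 days (1.25 ± 0.14, adjusted p = 2.75e-08 at day 4 and 1.52 ± 0.14, adjusted p = 2.56e-10 at day 16), and overlaps Serpina3k, with which it shares 16.0% of its 50-base words. Serpina10, which blocks clotting factor X with protein Z as cofactor, held 4.47, 4.69 and 6.35 FPKM in RA/CHIR-16d and 1.98, 1.39 and 1.1002 FPKM in RA-16d (1.31 ± 0.12, adjusted p = 5.47e-10) and was listed at 0 in each SMC library.

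The intracellular clade b serpins of chromosome 13 were scarce in mES, Serpinb6a apart, and each of the 6 described there was higher in RA/CHIR-16d than in mES. Serpinb6a, which blocks cathepsin G and trypsin-like proteases in the cytosol (chr13:33917918-34002794), was the most abundant, with 45.1, 46.7 and 58.7 FPKM in mES, 174, 153 and 156 FPKM in RA-16d, 321, 332 and 338 FPKM in RA/CHIR-16d, 219, 208 and 255 FPKM in XEN and 641, 613 and 612 FPKM in SMC. It was higher with CHIR at day 16 (1.04 ± 0.07, adjusted p = 2.46e-12) and not called at days 4, 7 and 10. Its gene overlaps Nqo2 and Ripk1 on the other strand, 25.1% of its 50-base words occur in other genes, and no source used here says that strand was used in counting, so its level is uncertain.

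Its relatives Serpinb6b (chr13:32965209-32979067) and Serpinb6c (chr13:33879816-33905708) were higher in XEN than in SMC (2.18 ± 0.10, adjusted p = 1.51e-16 for Serpinb6b; 2.71 ± 0.15, adjusted p = 3.44e-15 for Serpinb6c), opposite to Serpinb6a (-1.45 ± 0.07, adjusted p = 9.07e-16). Serpinb6b held 138, 139 and 134 FPKM in XEN, above each library of the other groups, and was not called between the arms at any day, with 31.7, 33.5 and 31.7 FPKM in RA/CHIR-16d and 26.4, 22.4 and 26.8 FPKM in RA-16d (0.35 ± 0.10, adjusted p = 0.00444). Serpinb6c did separate the arms, though 9.92% of its 50-base words, and none of its 150-base words, occur in other genes. It was lower with CHIR at day 4, with 6.38, 7.28 and 7.08 FPKM in RA/CHIR-4d against 17.4, 16.6 and 16.6 FPKM in RA-4d (-1.18 ± 0.15, adjusted p = 2.33e-07), and higher at day 16, with 55.4, 53.7 and 61.4 FPKM in RA/CHIR-16d against 8.27, 6.75 and 6.45 FPKM in RA-16d (2.83 ± 0.15, adjusted p = 3.02e-15). The direction turned between day 4 and day 16, and the RA/CHIR-16d libraries overlapped those of XEN, at 50.002, 47.7 and 59.3 FPKM. At day 10 the call rests on single libraries (1.01 ± 0.15, adjusted p = 1.33e-06), since it is lost without RA/CHIR-10d replicate 3 (0.92) or RA-10d replicate 2 (0.94). Endoderm markers summed to 5034 to 5471 FPKM in RA/CHIR-16d, 2142 to 2330.3 FPKM in XEN, 1009 to 1204 FPKM in RA-16d and 2397 to 2504 FPKM in RA-4d. At 2114 to 2196 FPKM in RA/CHIR-10d and 1878 to 1966 FPKM in RA/CHIR-7d they were near the XEN level, while the Serpinb6c means of these groups were 9.64 and 6.71 FPKM, and their part in the Serpinb6c levels was not tested.

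Serpinb9, the inhibitor of granzyme B that protects cells from cytotoxic lymphocytes (chr13:33003250-33017957), and its neighbour Serpinb9b (chr13:33027416-33041884), took opposite sides at day 16. Their RefSeq start regions (GRCm38.p6), chr13:33004291-33004590 and chr13:33027164-33027463, both on the + strand, are given 5′ to 3′ because these 2 adjacent genes differed in direction. Capitals mark the longest exact run that the pair shares. The RefSeq start of Serpinb9 lies inside the gene as GENCODE places it.
Serpinb9: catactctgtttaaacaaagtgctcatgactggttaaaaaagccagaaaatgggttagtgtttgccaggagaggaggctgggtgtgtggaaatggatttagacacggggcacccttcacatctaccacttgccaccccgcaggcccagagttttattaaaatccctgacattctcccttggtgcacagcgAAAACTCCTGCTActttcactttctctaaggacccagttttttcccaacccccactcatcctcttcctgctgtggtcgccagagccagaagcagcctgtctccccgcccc
Serpinb9b: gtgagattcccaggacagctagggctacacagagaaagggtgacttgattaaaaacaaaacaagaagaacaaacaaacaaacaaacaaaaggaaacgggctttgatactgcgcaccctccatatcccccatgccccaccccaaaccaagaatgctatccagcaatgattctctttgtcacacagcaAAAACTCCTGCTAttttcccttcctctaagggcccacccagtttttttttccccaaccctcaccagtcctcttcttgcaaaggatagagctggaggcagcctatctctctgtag
This run of 13 bases starts at position -60 in Serpinb9 and -64 in Serpinb9b, and 3 promoter entries hold it, those of both genes and Txk. The end-to-end alignment had 67.4% identical bases over 276 aligned bases, again with gaps left out. The motifs searched on both strands were the TATA box core TATAAA, the STAT-type motif TTCNNNGAA, the heat shock element core GAANNTTC, the AP-1 type motif TGANTCA and a direct repeat of the retinoic acid receptor half-site. Neither window held any of them.

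At day 16 Serpinb9 held 23.4, 23.1 and 23.3 FPKM in RA-16d against 7.16, 7.15 and 7.39 FPKM in RA/CHIR-16d, lower with CHIR (-1.56 ± 0.10, adjusted p = 2.05e-13). Serpinb9b held 4.94, 6.85 and 5.603 FPKM in RA-16d against 24.4, 23.5 and 25.7 FPKM in RA/CHIR-16d, higher with CHIR (1.92 ± 0.10, adjusted p = 7.29e-15). Neither pair of groups overlapped. After the inducers, Serpinb9 rose in both arms (1.64 ± 0.10, adjusted p = 2.23e-13 in RA; 1.11 ± 0.10, adjusted p = 2.73e-10 in RA/CHIR), while Serpinb9b rose with CHIR (1.56 ± 0.10, adjusted p = 1.02e-12) and stood at 10.2, 8.73 and 9.82 FPKM in RA-10d and 4.94, 6.85 and 5.603 FPKM in RA-16d without it (-0.64 ± 0.10, adjusted p = 1.1e-05, not called). The lines also differed, with Serpinb9 at 12.2 ± 1.38 FPKM in SMC and 3.53 ± 0.389 FPKM in XEN, and Serpinb9b at 8.39 ± 0.919 FPKM in SMC and 30.98 ± 2.28 FPKM in XEN. The day-10 call of Serpinb9 (-1.03 ± 0.10, adjusted p = 1.05e-09) is at the limit and ends with TMM-kind factors (-0.99), with quantile normalization (-0.94) and without RA/CHIR-10d replicate 2 or 3 (-0.998 and -0.994). At day 4 Serpinb9b was not called (0.96 ± 0.10, adjusted p = 1.93e-08), but passes under quantile normalization (1.02), with a pseudocount of 0.1 (1.17) and without RA-4d replicate 3 (1.03).

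Serpinb1a, an inhibitor of neutrophil elastase and related proteases (chr13:32842092-32851185), held 2.87, 2.496 and 2.57 FPKM in mES and was lower in both day-4 groups, with 0.3603, 0.465 and 1.21 FPKM in RA-4d (-1.15 ± 0.18, adjusted p = 4.54e-06) and 0.408, 0.857 and 0.917 FPKM in RA/CHIR-4d (-1.09 ± 0.18, adjusted p = 1.22e-05, and -0.95 without RA/CHIR-4d replicate 1, which ends the call). It rose after the inducers, to 19.7, 13.9 and 13.9 FPKM in RA-16d and 8.77, 9.84 and 10.3 FPKM in RA/CHIR-16d, and was not called between the arms at any day. In the chromosome 1 array, Serpinb7 was seen mainly in RA-16d, with 3.67, 2.84 and 3.07 FPKM against 0.516, 0.0925 and 0.328 FPKM in RA/CHIR-16d (-1.68 ± 0.12, adjusted p = 1.64e-12), and was listed at 0 in each library of RA-4d, XEN and SMC. Serpinb8 stayed near the limit, with its highest mean in SMC (1.07 ± 0.572 FPKM), and was called in none of the comparisons between the arms.

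**Figure D3:**
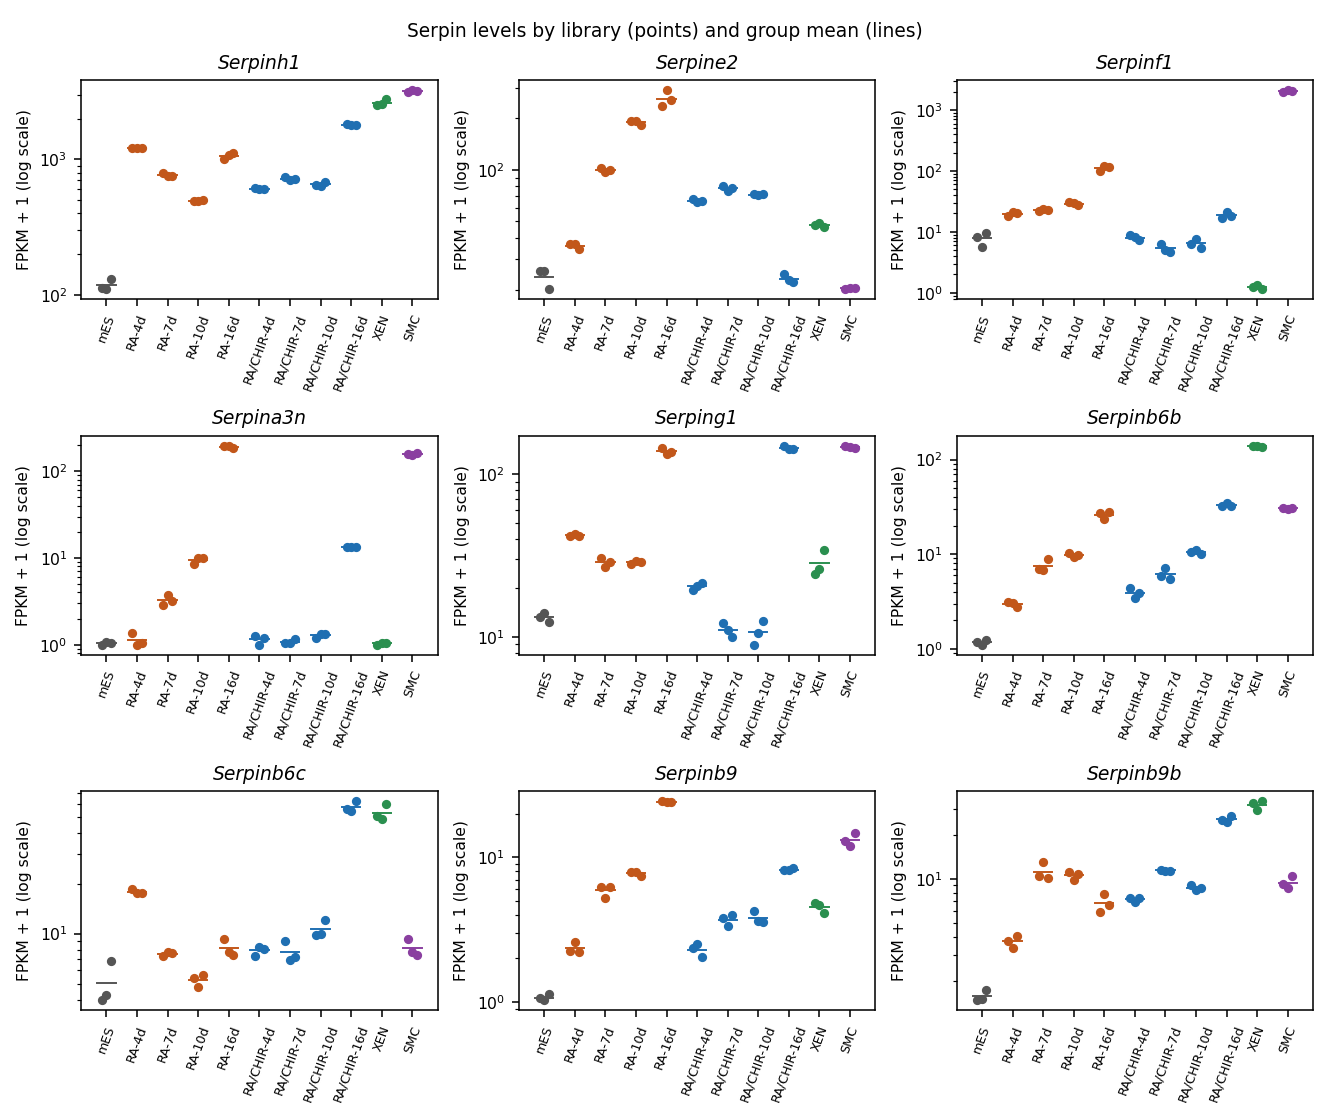
Levels of 9 serpins, 1 panel per gene, as FPKM + 1 on a log axis, with a point for each of the 3 libraries of a group and a line at the group mean (mES grey, RA orange, RA/CHIR blue, XEN green, SMC purple). At day 16 the RA points lie above the RA/CHIR points in Serpine2, Serpinf1, Serpina3n and Serpinb9, below them in Serpinb6c and Serpinb9b, and overlap them in Serping1.

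Many serpins rose from day 10 to day 16 in both arms. These counts too are a description, since the 20 were taken up through the groups where they are high. In RA, 11 of the 20 were higher at day 16, beside 7.37% of all genes, and none was lower in limma, beside 1.80% (1 was lower at an unadjusted p under 0.05). In RA/CHIR, 16 were higher, beside 8.47%, and 1 was lower, beside 6.28%. Among all genes called in RA, 80.4% were higher at day 16, and 69.9% with quantile normalization, which shifts the median of all genes by -0.11. The rises in RA included those of Serpina3n (4.33), Serpina3g (2.88), Serpinb1a (2.63) and Serping1 (2.26), and in RA/CHIR those of Serping1 (3.77), Serpina3n (3.39), Serpinf2 (2.54) and Serpinb6c (2.45). Quantile normalization takes the RA rise of Serpina10 to 0.92, under the limit. Marker sums moved over the same step. Fibroblast markers were at 231 to 244 FPKM in RA-10d and 3009 to 3727 FPKM in RA-16d, and at 35.6 to 39.2 FPKM in RA/CHIR-10d and 466 to 502 FPKM in RA/CHIR-16d. Smooth muscle markers were at 1257 to 1275 FPKM in RA-10d and 8979 to 10332 FPKM in RA-16d, and at 113 to 122 FPKM in RA/CHIR-10d and 468 to 483 FPKM in RA/CHIR-16d. Visceral endoderm and liver markers were at 4.25 to 5.99 FPKM in RA/CHIR-10d and 631 to 658 FPKM in RA/CHIR-16d, but at 20.4 to 22.7 FPKM in RA-10d and 18.9 to 21.98 FPKM in RA-16d. Endoderm markers were at 500.1 to 535 FPKM in RA-10d and 1009 to 1204 FPKM in RA-16d, and at 2114 to 2196 FPKM in RA/CHIR-10d and 5034 to 5471 FPKM in RA/CHIR-16d. Stem cell markers were at 39.4 to 45.96 FPKM in RA-10d and 61.4 to 95.5 FPKM in RA-16d. In the RA/CHIR arm they were at 445 to 466 FPKM in RA/CHIR-10d and 1032 to 1080 FPKM in RA/CHIR-16d. The part of these cells in the serpin changes was not tested.

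A test of the difference between the 2 changes called 6 serpins with the more positive change in RA/CHIR, beside 6.02% of all genes, and 2 with the more positive change in RA, beside 8.81%. The first were Serpinf2 (2.62 ± 0.24, adjusted p = 1.01e-09), Serpinb9b (2.200 ± 0.15, adjusted p = 2.75e-12), Serpinb6c (1.82 ± 0.21, adjusted p = 6.18e-08), Serpinb2 (1.79), Serping1 (1.51) and Serpina10 (1.07). The second were Serpine2 (-2.08 ± 0.10, adjusted p = 5.69e-15) and Serpinb7 (-1.696 ± 0.17, adjusted p = 4.67e-09). The Serpinb2 value depends on the pseudocount of 1, since all 6 day-10 libraries are listed at 0. The Serpina10 value drops to 0.93 without RA/CHIR-16d replicate 3 and to 0.95 without RA-16d replicate 3. Serpinb6a, at 0.97 ± 0.10, adjusted p = 2.28e-08, missed the size limit and passes with TMM-kind factors (1.02), with quantile normalization (1.17) and without RA-16d replicate 1 (1.03) or RA-10d replicate 3 (1.02). Serpinb1a, at -0.95 ± 0.26, adjusted p = 0.00441, also missed it and passes when one of these libraries is left out (RA/CHIR-10d replicate 2, RA-16d replicate 2 or 3, RA-10d replicate 2; -1.02 to -1.08), with quantile normalization (-1.08) and with a pseudocount of 0.1 (-1.12). Serpina3n, at -0.94 ± 0.15, adjusted p = 1.2e-05, passes with quantile normalization (-1.01).

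**Figure D4:**
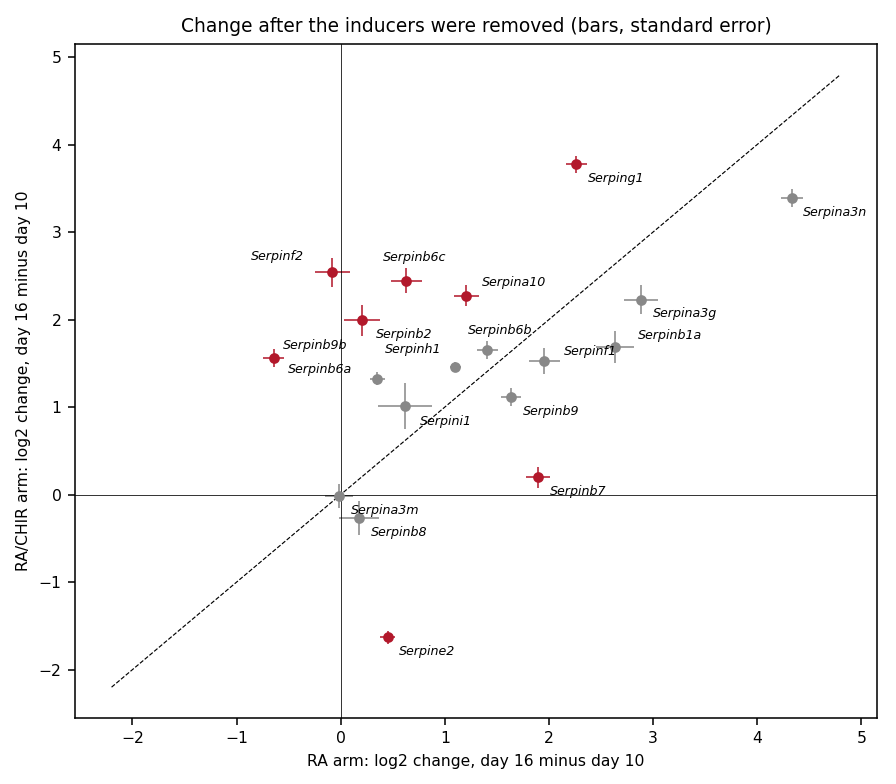
Log2 change from day 10 to day 16 in the RA arm (horizontal) and the RA/CHIR arm (vertical) of 19 of the 20 serpins, with standard errors as bars and a dashed line where both changes are equal. Red points differed between the arms in the interaction test, grey points were not called, and Serpine2 lies alone at the bottom, with 0.45 in RA and -1.63 in RA/CHIR.

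Set against the stem cells they came from, both arms had more of the 20 serpins called higher than lower. The 20 entered the set through the groups where they are high, so these counts are a description. In RA-4d 9 of the 20 were higher than in mES, beside 11.7% of all genes, and 2, Serpini1 and Serpinb1a, were lower, beside 11.7%. In RA/CHIR-4d 6 were higher, beside 9.06%, and 1, Serpinb1a, was lower, beside 9.13%. Serpini1 in RA-4d has -0.97 without RA-4d replicate 2, which ends its call. In RA-16d 14 were higher, beside 20.4%, and none was lower in limma, beside 16.3% (1 at an unadjusted p under 0.05). In RA/CHIR-16d 16 were higher, beside 18.0%, and none was lower, beside 18.3% (0 at an unadjusted p under 0.05). Quantile normalization ends the call of Serpina10 in RA-16d (0.95). The largest difference in RA-16d was that of Serpina3n (7.52 ± 0.11, adjusted p = 1.87e-27) and in RA/CHIR-16d that of Serpinb6b (4.84 ± 0.10, adjusted p = 6.86e-24). The arms share the mES libraries in these comparisons.

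The 2 reference lines differed in most described serpins. XEN had 5 higher than SMC, beside 12.5% of all genes, and 10 lower, beside 17.2%. The 5 higher were Serpinb6c, Serpinb6b, Serpinb9b, Serpini1 and Serpine2. Those lower were led by Serpinf1 and Serpina3n (-7.24 ± 0.11, adjusted p = 1.66e-27), and also held Serpinb6a, Serping1 and Serpinb9. Each of the first 5 but Serpinb6b and Serpine2 was also higher in RA/CHIR-16d than in RA-16d. RA/CHIR-16d had 10 serpins higher than XEN, beside 14.5%, and 2 lower, Serpinb6b and Serpine2, beside 8.64%. The share of higher genes among all calls was 62.7% there and 50.4% with quantile normalization. Those higher in RA/CHIR-16d included Serpinf1 (3.898 ± 0.15, adjusted p = 2.86e-18), Serpina3n (3.697 ± 0.11, adjusted p = 1.12e-20), and Serping1 (2.37 ± 0.10, adjusted p = 3.23e-17), and the fibroblast markers that differ between these groups are given above. RA-16d had 4 higher than SMC, beside 15.0%, namely Serpine2, Serpina3g, Serpinb7 and Serpina10, and 5 lower, beside 10.5%, among them Serpinf1, Serpinb6a, Serpinh1 and Serpina3m. The Serpina10 call ends under quantile normalization (0.97). Serpinb2 would join the lower genes without SMC replicate 2 (-1.05), with quantile normalization (-1.22) and with a pseudocount of 0.1 (-2.41).

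The limit of 1 FPKM cuts through values that lie close together. Just inside it were Serpinb8, with its highest group mean at 1.07 FPKM in SMC, and Serpina3m at 2.05 FPKM in RA/CHIR-4d. Just outside it were Serpina6, which carries corticosteroids in plasma, at 0.845 FPKM in RA-16d, Serpina3h at 0.816 FPKM in SMC and Serpina3i at 0.764 FPKM in SMC. Promoter sequences matched 53 of the 63 members and 15 of these 20. Among the 15, a TATA box core, TATAAA read on both strands, occurred in Serpinb6c, Serpinb7 and Serpinb2, while 13.6% of all promoters hold it. The Serpinb2 match starts at position -29 on the + strand of its window. Those of Serpinb6c (position 4) and Serpinb7 (positions -239 and -33) are on the - strand. The motif TGANTCA, typical of AP-1 sites, occurred in Serpinb7, Serpinb2 and Serpinb8, against 7.81% of all promoters. Both are matches of letters and not measured sites.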

How the data were processed

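Per the submitters' processing notes, reads were handled with Cufflinks, Cuffdiff, HISAT2 2.0.4 and Trimmomatic 0.33 on the build GRCm38, without parameters. The labels' protocols state poly(A) libraries read as about 25M paired 150 bp reads. The authors deposited FPKM for 52631 genes in 33 libraries, without counts, so the depth and counting error are unknown. Values were used as log2(FPKM + 1) without rescaling, and limma 3.58.1 was run on the 16508 genes that reached 1 FPKM in 3 or more libraries (R 4.3.3), in a single model of the 11 groups, with a variance trend (residual df 22, prior df 3.05). P-values are two-sided and adjusted by Benjamini-Hochberg over all genes within each of 14 comparisons. FPKM errors are SD (n = 3), and those of log2 values standard errors. A call required an adjusted p under 0.05 and a log2 difference of at least 1. Serpins with a group mean of 10 FPKM are given in more detail, though not in every group. Those of 1 to 10 FPKM are given by their highest groups, and related gene lists by the 2 to 4 largest called changes. The members and lists were chosen with earlier results of these data known. Shared 50- and 150-base words came from GENCODE M21 transcripts, and promoters from RefSeq. The fit was tested on simulated data. Alternatives were other scalings, pseudocount, filters, variance and sample choices, and the replicate block. Exact zeros are listed values. The counts cover 20 serpins, of which 1 is not reported here by itself.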

Additional observations from a re-analysis of the deposited data

Results flagged for a closer look

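In 8 serpins the change from day 10 to day 16 differed between the arms by the interaction test in limma, given as the RA/CHIR change minus the RA change on the log2 scale. For Serpinf2 the difference was 2.62 ± 0.24, adjusted p = 1.01e-09, with all 3 RA/CHIR-16d libraries (4.11 to 6.95 FPKM) above all RA-16d libraries (0.141 to 0.289 FPKM). For Serpinb9b it was 2.200 ± 0.15, adjusted p = 2.75e-12, and the gene went up in RA/CHIR (1.56) and stood lower in RA (-0.64, not called). For Serpine2 it was -2.08 ± 0.10, adjusted p = 5.69e-15, with the opposite arrangement (-1.63 in RA/CHIR; 0.45 in RA, not called). For Serpinb6c it was 1.82 ± 0.21, adjusted p = 6.18e-08, from 2.45 in RA/CHIR and 0.63 in RA. For Serping1 it was 1.51 ± 0.14, adjusted p = 1.9e-09, and both arms rose. Serpinb7 had -1.696 ± 0.17, adjusted p = 4.67e-09 and rose in RA (1.89). Serpinb2 had 1.79 ± 0.25, adjusted p = 1.28e-06, with each day-10 library listed at 0. Serpina10 had 1.07 ± 0.17, adjusted p = 1.47e-05, and 0.55 with a pseudocount of 0.1 (adjusted p = 0.467), where it is no longer called. Groups of 3 libraries are too small for a check of single outlying values.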

How the results depend on the processing

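Of 154 calls of a serpin in a comparison, 140 held under each alternative run in which the gene was still tested. A gene that the filter of 5 FPKM removed was not counted as lost in that run. The values of a serpin in a comparison were counted where it was called or some setting changed its label. Of these, 2473 kept their side of the limits, 42 newly passed, 27 no longer passed and 1 reversed. A change of sign counted as reversed only where the value was called before or after it. The reversal was Serpina3g in the interaction, at 1.48 with a pseudocount of 0.1 (adjusted p = 0.0245) against -0.66 with 1, and many of its day-10 values are near 0. The causes of the changes below were not tested.

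With a pseudocount of 0.1, the counts became 4 higher with CHIR at day 4, 2 higher at day 7, 2 lower in RA/CHIR-4d than in mES and 1 lower in RA-16d than in mES. A filter of 5 FPKM in 3 libraries tests fewer serpins and left 1 higher with CHIR at day 4, 0 at day 7 and 4 at day 16, 6 higher in RA/CHIR-16d than in XEN, 2 higher in RA-16d than in SMC, and in the interaction 3 higher and 1 lower. Quantile normalization gave 1 lower in RA/CHIR-16d than in XEN and 4 lower in the interaction. It shifts the median of all genes by -0.13 in RA-16d against mES, 0.13 in XEN against SMC, -0.12 in RA/CHIR-16d against XEN and -0.14 in RA-16d against SMC. Without a minimum fold, 5 were higher and 7 lower with CHIR at day 4, 4 higher and 8 lower at day 7, 10 higher and 2 lower in RA/CHIR-4d than in mES, 1 lower in RA-16d than in mES, 1 lower in RA-16d than in RA-10d, 4 lower in RA/CHIR-16d than in XEN, 7 higher in RA-16d than in SMC and 7 lower in the interaction. The TMM-kind factors, no filter, no variance trend and a fit of only the groups compared moved no count of serpins by over 1.5 times.

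Leaving out each library in turn gave 1 to 2 serpins lower in RA-4d than in mES (1 without RA-4d replicate 2) and 0 to 1 lower in RA/CHIR-4d than in mES (0 without RA/CHIR-4d replicate 1), and moved no other count by over 1.5 times. Over all genes, the calls with a pseudocount of 0.1 went from 1259 to 2192 at day 4, 1762 to 2964 at day 7, 2546 to 3888 at day 10, 1514 to 2339 in RA-16d against RA-10d and 2435 to 3820 in RA/CHIR-16d against RA/CHIR-10d. Without a minimum fold they numbered 6869 in RA-16d against RA-10d to 12280 in RA-16d against mES, where the fold limit left 1514 and 6057.

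With the replicate block, each count of serpins was as without it, for example 8 higher and 6 lower with CHIR at day 16. The numbers were not taken to pair the libraries, since in none of 13 comparisons was every same-number correlation over 0.1 (range -0.076 to 0.109). In 2 of the 13 (RA/CHIR against RA at days 4 and 7) all 6 libraries correlated best with their own number, which is a hint from the data and not from the design. Without read counts, the precision of the values near 0, such as those of Serpinb2, Serpinb7 and Serpina10, cannot be given.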

Other observations

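Proteases and inhibitors outside the family were counted from lists as well. Clade b serpins and cystatins restrain some of the cathepsins. Of 11 cathepsins tested, 5 were higher in limma with CHIR at day 16, beside 8.41% of all genes, and none lower, beside 12.9%. At an unadjusted p under 0.05, 6 were higher and 1 lower. The median log2 difference was 0.996 against -0.01 over all genes. Ctsl, a lysosomal cysteine protease that is abundant in endoderm, had 4049 ± 19.8 FPKM in RA/CHIR-16d and 876 ± 26.4 FPKM in RA-16d (2.21 ± 0.09, adjusted p = 9.49e-18). Ctsc, which activates granule serine proteases, was higher too (1.95 ± 0.05, adjusted p = 3.7e-21), as was Ctsa, a lysosomal carboxypeptidase (1.898 ± 0.11, adjusted p = 1.88e-14). In the same libraries, the leukocyte marker Cd68, a lysosomal membrane protein, had 182 ± 5.66 FPKM in RA/CHIR-16d and 25.6 ± 4.68 FPKM in RA-16d, while Ptprc was at or near 0 in both.

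Of 19 protease inhibitors of other families, 8 were higher and 3 lower at day 16, beside the same 8.41% and 12.9% of all genes (median 0.73 against -0.01 over all genes). A2m, a broad plasma protease trap, had 16.6 ± 1.05 FPKM in RA-16d and 0.215 ± 0.132 FPKM in RA/CHIR-16d (-3.86 ± 0.12, adjusted p = 1.34e-19). Spink1, the pancreatic trypsin inhibitor, had 60.8 ± 2.16 FPKM in RA/CHIR-16d and 4.59 ± 1.28 FPKM in RA-16d (3.49 ± 0.45, adjusted p = 1.57e-07), and Wfdc2 was also higher with CHIR (2.503 ± 0.20, adjusted p = 2.86e-11). Of 21 other serine proteases, 7 were higher and 4 lower, beside the same shares (median 0.00 against -0.01 over all genes), among them F2, the gene of prothrombin, higher with CHIR (1.68 ± 0.13, adjusted p = 2.49e-11), and Htra1, a secreted protease, also higher (2.28 ± 0.09, adjusted p = 2.29e-17).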
